A study of Mus musculus with 6 samples.

Results

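Imprinted genes are transcribed mainly from 1 parental copy. A list of 38 of them was followed through RNA sequencing tables of mouse embryonic stem cells. They were chosen by gene symbol and not by a cutoff on measured values, though earlier results of these data were known. All 38 were found, in 43 of the 62490 loci of the tables. In the mouse, imprints are DNA methylation marks laid down in egg or sperm at control regions and kept after fertilisation by KRAB zinc finger proteins such as ZFP57, which bind the methylated allele. Imprinted genes lie in clusters that share a control region, and many act on fetal growth, the placenta and the brain. Pluripotent cells are known to lose or gain imprints in culture. The tables hold the summed transcripts of both alleles, so neither allelic expression nor methylation was measured.

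All groups were blastocyst-derived embryonic stem cells of strain C57BL/6J with the genotype Mll1fl/fl; Cre-ER TM, that is, floxed alleles of the histone methyltransferase gene Mll1 and a Cre recombinase that tamoxifen can activate. The labels name no tamoxifen for any group. Untreated cells were compared with cells given VD3 (1α,25-dihydroxyvitamin D3, the active hormone form of vitamin D) at 1 µM for 5 days, and with cells given the same VD3 together with MM-401, an inhibitor of the MLL1 enzyme, at 100 µM for 5 days. Each group had 2 libraries, described as biological duplicates, and no group received MM-401 alone. The cells grew on fibroblast feeders with leukemia inhibitory factor, and the labels list serum as well as serum replacement for every library. Whether all libraries came from 1 clone is not stated.

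The deposited tables pool the 2 libraries of each group into 1 column, which leaves every difference below without a replicate check and without a test. Estimated counts added up to 62081406 for untreated cells, 73383193 for VD3 and 73292511 for both agents together, and the 38 genes took 0.541%, 0.485% and 0.439% of them. Levels are given as FPKM, fragments per kilobase of transcript scaled to the fragments of the pool, which allows genes to be compared per length. Values are listed in the order untreated, VD3, VD3 plus MM-401. Ranges in brackets are the authors' confidence bounds of 1 pool, which describe their model and not the spread between libraries; for Grb10, Gnas and Copg2, each named by 2 loci, the bounds of the loci were added here and are not the authors' own. Stem cell markers were high, with a summed level of 2964, 4530 and 5717 FPKM over 10 genes. Of 18 fibroblast markers, which feeder cells would bring, the summed level was 657, 910 and 711 FPKM. The summed CPM, counts scaled to pool totals, ran 1250, 1217 and 1002. The totals above are larger for both treated pools, so this scaling lowers them against the counts as deposited. Most of the FPKM came from Sparc (394, 575 and 471), Fn1 (136, 115 and 101) and Tagln (105, 190.0 and 116). As deposited, the counts were 19649, 29256 and 26310 for Sparc, 50889, 48666 and 37370 for Fn1, and 4874, 8717 and 7533 for Tagln. Of the 6 defining ones, Col1a1, Col1a2, Postn and Lum stayed under 1 FPKM in every pool, and Lum was listed at 0. Col3a1 was at 4.19, 3.93 and 0.553 FPKM but at 13.8, 10.7 and 23.3 counts, and Thy1 at 7.46, 13.8 and 9.41 FPKM. Since fibroblasts express several imprinted genes, how much feeder RNA adds to their values was not tested. Trophoblast markers, of interest since several of the genes act in placenta, summed to 173, 257 and 239 FPKM over 8 genes. Krt18 (84.3, 145 and 141) and Krt8 (38.6, 67.5 and 54.7) made up most of that sum. Cdx2 stayed under 5 FPKM and Elf5 under 1 in every pool. With VD3, Hand1, Tfap2c and Gata3 were below untreated by FPKM, and Krt7, Krt8, Krt18, Cdx2 and Elf5 above. By count Gata3 was above as well, at 203, 246 and 308. The sum therefore does not stand for a shared rise of these markers. Primitive endoderm markers summed to 14.7, 18.5 and 13.7 FPKM over 8 genes. In bulk RNA, fewer cells that express a gene and less RNA per cell cannot be told apart.

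The promoters of Ube3a, Rian, Tssc4 and Zdbf2, 4 of the 6 genes past 2-fold in any comparison, are shown first, because they contrast in CpG content. These windows surround transcript starts. Whether any of them is a control region, or carries methylation in these cells, was not tested. Each run covers 300 bases, from 250 before to 50 after the transcript start (RefSeq, GRCm38.p6), printed 5′ to 3′ with CpG dinucleotides in capitals.
Ube3a promoter, chr7:59228500-59228799, plus strand: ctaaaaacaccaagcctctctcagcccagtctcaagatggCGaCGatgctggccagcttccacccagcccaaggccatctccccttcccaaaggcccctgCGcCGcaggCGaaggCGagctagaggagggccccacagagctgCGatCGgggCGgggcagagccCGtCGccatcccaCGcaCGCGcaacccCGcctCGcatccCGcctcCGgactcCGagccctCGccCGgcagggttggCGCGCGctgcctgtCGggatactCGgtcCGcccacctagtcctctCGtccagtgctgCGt
Tssc4 promoter, chr7:143069118-143069417, plus strand: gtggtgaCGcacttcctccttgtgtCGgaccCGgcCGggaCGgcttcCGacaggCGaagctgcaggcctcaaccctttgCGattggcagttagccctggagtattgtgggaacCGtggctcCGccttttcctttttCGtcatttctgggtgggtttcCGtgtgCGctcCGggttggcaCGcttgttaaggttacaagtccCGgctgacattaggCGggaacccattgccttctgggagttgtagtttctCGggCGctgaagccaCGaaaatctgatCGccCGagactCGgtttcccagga
Zdbf2 promoter, chr1:63200108-63200407, plus strand: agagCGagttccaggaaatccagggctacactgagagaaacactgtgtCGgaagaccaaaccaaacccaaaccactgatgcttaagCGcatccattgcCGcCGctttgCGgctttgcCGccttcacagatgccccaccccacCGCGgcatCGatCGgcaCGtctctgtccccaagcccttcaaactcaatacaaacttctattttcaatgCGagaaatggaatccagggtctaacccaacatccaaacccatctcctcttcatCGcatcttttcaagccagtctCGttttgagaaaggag
Zdbf2 promoter, chr1:63273019-63273318, plus strand: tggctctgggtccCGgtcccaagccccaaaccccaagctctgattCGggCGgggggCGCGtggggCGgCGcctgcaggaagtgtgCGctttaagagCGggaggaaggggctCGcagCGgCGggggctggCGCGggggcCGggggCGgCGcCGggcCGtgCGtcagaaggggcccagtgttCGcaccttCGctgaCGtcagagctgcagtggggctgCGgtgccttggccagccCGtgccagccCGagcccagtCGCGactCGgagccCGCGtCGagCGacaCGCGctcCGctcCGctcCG
Rian promoter, chr12:109603695-109603994, plus strand: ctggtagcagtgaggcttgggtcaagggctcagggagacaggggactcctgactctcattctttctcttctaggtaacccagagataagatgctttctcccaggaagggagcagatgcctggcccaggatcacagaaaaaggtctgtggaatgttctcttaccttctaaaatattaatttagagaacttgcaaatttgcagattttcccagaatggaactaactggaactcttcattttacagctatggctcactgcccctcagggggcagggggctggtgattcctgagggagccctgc
The Ube3a window holds 29 CpG and the Tssc4 window 23. The upstream Zdbf2 start has 15, the start nearest the annotated gene 38, and the Rian window none. Of the other two genes past 2-fold, Commd1 has windows with 17 and 18 CpG, not printed, and Nap1l4 had no match. For 32 of the 38 genes RefSeq windows were found, 48 in all; H19, Peg10, Cdkn1c, Impact, Sgce and Nap1l4 had no match. The median window of these genes held 15.5 CpG, against 7 over all 32851 windows. The hexamer TGCCGC, the core that ZFP57 binds when methylated, was searched on both strands. It occurred in 13 of the 48 windows (27.1%), against 11.6% of all windows, with 3 copies at the upstream Zdbf2 start. The hexamer itself holds a CpG, and the windows of these genes are richer in CpG and in GC (median 57.7% against 52.7%). These shares were not matched for composition, so they do not show an excess of the hexamer beyond it. The nuclear receptor half-site AGGTCA, of the kind the vitamin D receptor can bind, occurred on either strand in 4 of 48 windows (8.33%), against 16.3% of all. Several windows belong to the same gene, so they are not independent. A match here is a run of letters and not a bound site.

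Some of these loci also name microRNA genes, since imprinted noncoding RNAs host small RNAs. The loci of H19, Meg3 and Mirg name 12 microRNA genes with 22 mature sequences in RefSeq, 9 of the genes in the Mirg locus. All 22 seeds (bases 2 to 8) differ. Examples from each host are printed with the seed in capitals, and their levels as mature microRNAs are not given by the tables.
mmu-miR-675-5p: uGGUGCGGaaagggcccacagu
mmu-miR-675-3p: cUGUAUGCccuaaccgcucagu
mmu-miR-770-5p: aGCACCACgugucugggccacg
mmu-miR-770-3p: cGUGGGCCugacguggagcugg
mmu-miR-134-5p: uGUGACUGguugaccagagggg
mmu-miR-410-3p: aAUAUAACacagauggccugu

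The 38 genes ranged over several orders of magnitude in FPKM. In their highest pool, 31 reached 5 FPKM, 11 of these reached 100 FPKM, 7 stayed under 5 in every pool and 4 of those under 1. In the untreated and VD3 pools the highest levels belonged to Nap1l4, a histone chaperone, at 447, 713 and 329.8 FPKM, and to the locus of Snrpn. Snrpn, a splicing protein gene that the table joins with Snurf, Snhg14 and Snord107, was at 364, 537 and 351. With both agents the locus of Commd1 was highest, at 524 FPKM. The levels of Nap1l4 and Snrpn carry little precision. The authors' lower bound was 0 in every pool for Nap1l4 and in 2 of the 3 pools for Snrpn. Among the 31 genes, 9 had a lower bound of 0 in at least 1 pool. The median standard deviation that the authors give for an estimated count was 17.6%, 17.7% and 18.7% of the count over these 31 genes. Reads are not stated to be assigned by strand, so genes that overlap on opposite strands (Nnat in Blcap, Zrsr1 in Commd1, Airn in Igf2r, Mest and Copg2 at their ends) cannot be told apart.

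**Figure D1:**
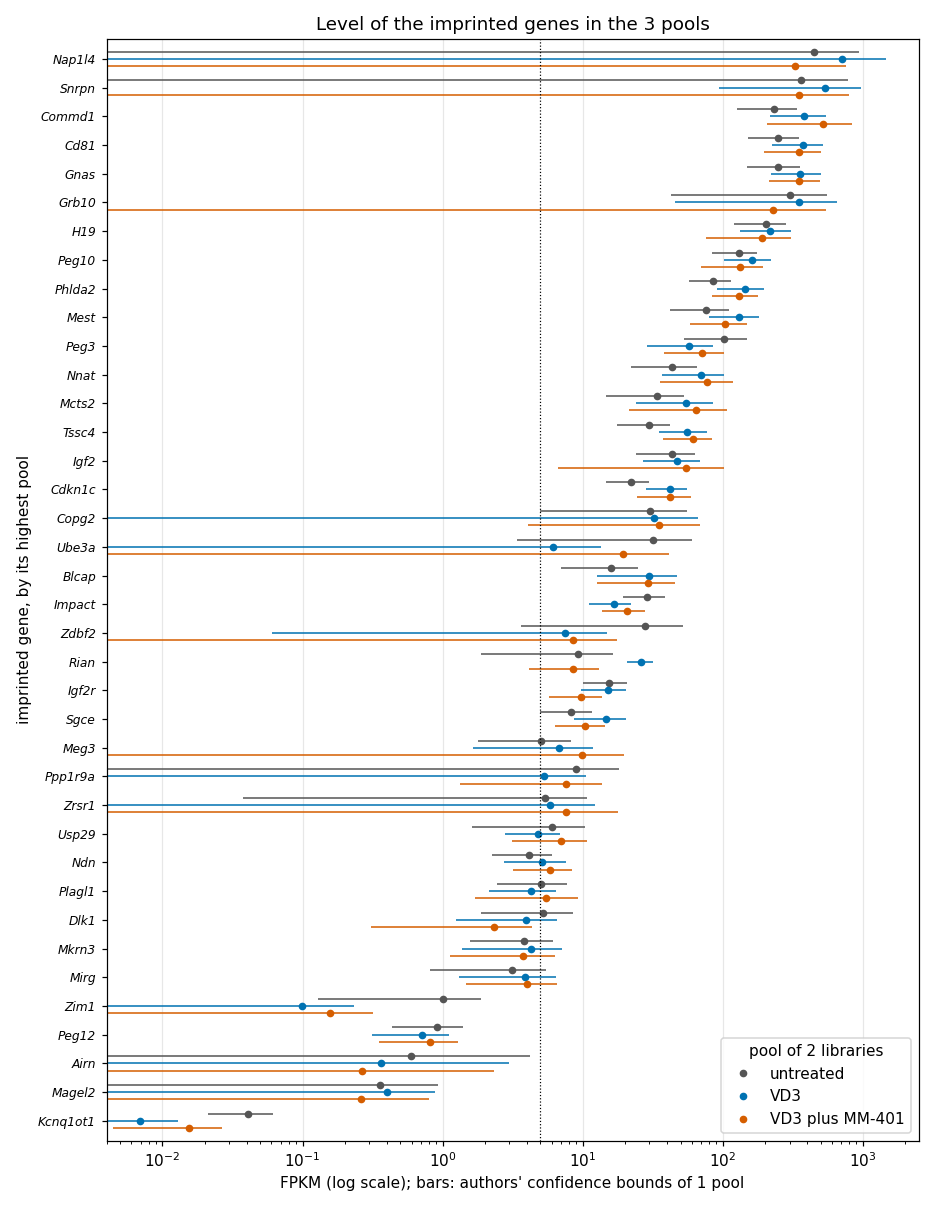
FPKM on a log axis of all 38 imprinted genes, ordered by their highest pool, with 1 point per pool of 2 libraries and bars for the authors' confidence bounds (bars that reach the left edge go to or near 0; the dotted line is at 5 FPKM). Most bars of a gene overlap; those of Rian in the VD3 pool, 20.6 to 32.0 FPKM, and of Kcnq1ot1 at the bottom stand apart from the untreated pool.

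The first comparison asks how these genes stood after 5 days of VD3. Differences are log2 ratios of FPKM + 1, which understate low genes. The imprinted genes had no common direction. The median over the 33 genes whose mean over the pools reached 1 FPKM was 0.25, beside 0.30 over the 14225 genes of the tables at that level, and 16 of the 33 stood above that median gene. Of the 31 genes with 5 FPKM or more, 22 were above 0 and 9 below, and 71.7% of all genes at that level were above 0. One of the 31, Rian, was at least 2-fold higher (3.54% of all 10910 genes), and its authors' intervals were apart (0.926% of all). Zdbf2 and Ube3a were at least 2-fold lower (8.69% of all); none of the 31 was lower with intervals apart (4.22% of all). By the authors' estimated count, none was 2-fold higher (1.57% of all), and Ube3a, Zdbf2 and Ppp1r9a were lower (8.3% of all). As shares of the 31 genes, the 2-fold calls by FPKM were 3.23% higher and 6.45% lower, near the shares of all genes.

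With VD3 plus MM-401 against untreated cells, the median was 0.20, beside 0.21 over all genes at that level. Commd1 and Tssc4 were at least 2-fold higher, 2 of 31 (13.4% of all 10969 genes), and Zdbf2 was lower (6.24% of all). No interval was apart in either direction, against 4.26% of all genes higher and 2.69% lower. By estimated count none was 2-fold higher (9.31% of all), and Zdbf2 and Ube3a were lower (5.24% of all). This comparison shares the untreated pool with the first one. Set directly against VD3 alone, the pool with both agents had a median of 0.03 over these genes, beside 0.01 over all. Of 30 genes with 5 FPKM in 1 of these pools, Ube3a was 2-fold higher (4.7% of all 10719 genes), and Rian and Nap1l4 were lower (2.02% of all). None was higher with intervals apart (0.83% of all), and Rian was lower with intervals apart (0.541% of all). By estimated count no gene was past 2-fold in this comparison, where 1.9% of all genes were higher and 0.429% lower.

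**Figure D2:**
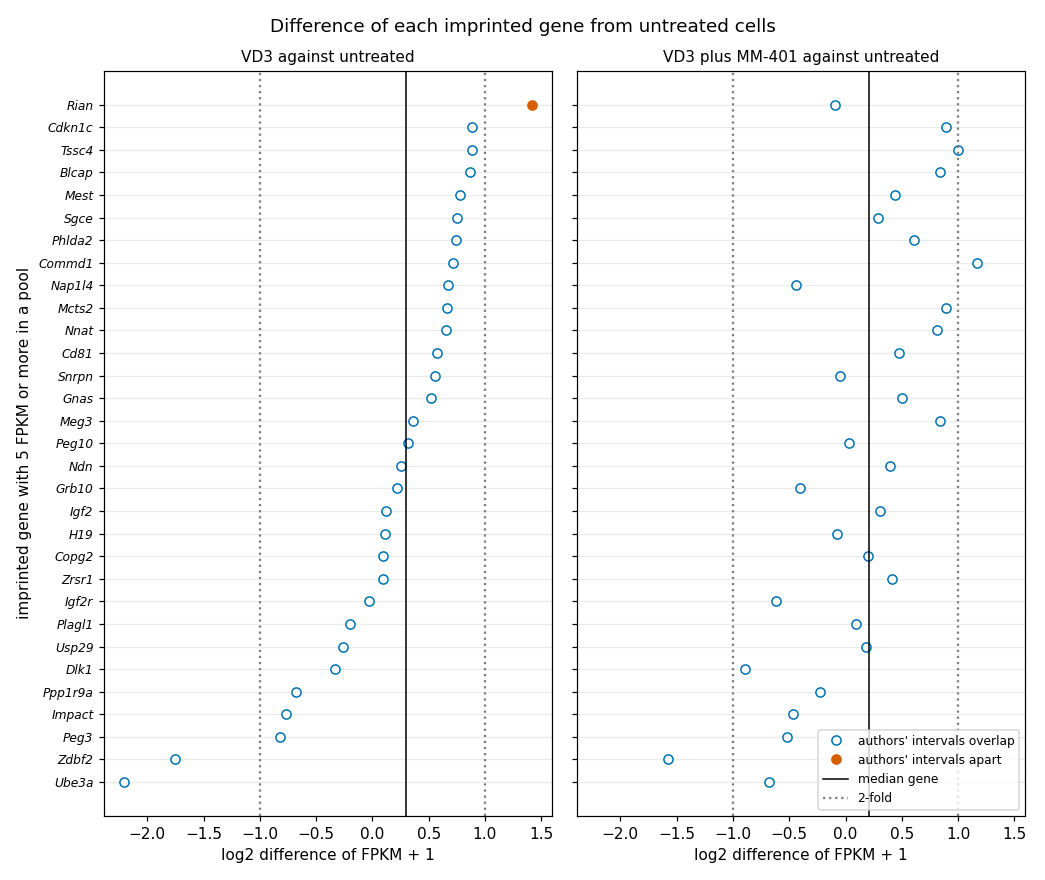
Log2 difference of FPKM + 1 for the 31 imprinted genes with 5 FPKM or more, ordered by the VD3 difference, for VD3 (left) and VD3 plus MM-401 (right) against the same untreated pool. The solid line is the median gene of the tables (0.30 and 0.21) and dotted lines mark 2-fold; Rian on the left is the single gene with the authors' intervals apart.

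Split by the allele that textbooks give as active, the 16 maternally expressed genes at that level had medians of 0.47 with VD3 and 0.23 with both agents. The 16 paternally expressed genes had 0.12 and 0.14. By estimated count the maternal medians were 0.29 and 0.14, beside 0.29 and 0.19 over all genes. The paternal ones were 0.12 and 0.11. The maternal group thus stood above the median gene with VD3 by FPKM and level with it by count. For several members of that group, Ube3a and Grb10 among them, imprinting is restricted to some tissues, and the allele in use in these cells was not measured.

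By position the 38 genes fall into 15 groups with gaps over 3 Mb between them, on 9 chromosomes. The 9 groups with more than 1 gene hold 32 of them, and 17 lie on chromosome 7. The distal end of chromosome 7 (142575529 to 143549106, GRCm38) carries 8 of the genes in adjoining domains, 1 controlled between H19 and Igf2 and 1 at Kcnq1ot1. With VD3, all 7 of its genes with 5 FPKM had values above untreated, from 0.12 to 0.89 on the log2 scale with a median of 0.67, and none had intervals apart. Of all genes at that level 71.7% were above untreated, and relative to the median gene 5 of the 7 were higher while H19 and Igf2 were both at -0.18. By CPM the same 5 were above 0, with a median of 0.39, and after the adjustment for GC content and length described further on 4 were, with a median of 0.11. With both agents they ranged from -0.44 to 1.00.

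In the Kcnq1ot1 domain, Cdkn1c, the gene of the cell cycle inhibitor p57, was at 22.2 [14.8 to 29.6], 41.9 [28.3 to 55.6] and 42.1 [24.5 to 59.6] FPKM. Both treated pools lay above the untreated one, by 0.89 and 0.89 on the log2 scale, and the bounds overlapped by little. The counts were 2648, 4984 and 4749. Tssc4, whose protein helps to assemble spliceosome particles, was at 29.9 [17.5 to 42.3], 56.0 [35.0 to 76.9] and 60.9 [37.6 to 84.2] FPKM. Its estimated counts were 1872, 3694 and 3736, in the same order as the FPKM, and the log2 differences were 0.88 and 1.00. Phlda2, a growth-restraining gene of the placenta, was at 85.9 [57.2 to 115], 144 [90.7 to 197] and 131 [84.0 to 179] FPKM, from 3338, 4886 and 4920 counts, with log2 differences of 0.74 and 0.61. Cd81, which encodes a tetraspanin, was at 249.9 [152 to 348], 373 [223 to 522] and 348 [196 to 500.3] FPKM, from 16752, 25986 and 25101 counts. Relative to the median gene, the differences of these 4 genes with VD3 were 0.59 for Cdkn1c, 0.58 for Tssc4, 0.44 for Phlda2 and 0.28 for Cd81. Nap1l4 was at 447 [0 to 934], 713 [0 to 1472] and 329.8 [0 to 753] FPKM, highest with VD3 and lowest with both agents. Its counts were 13859, 21752 and 15960, so by count the pool with both agents was above the untreated one and by FPKM below. Against VD3 the pool with both agents was at -1.11 on the log2 scale of FPKM, with overlapping intervals.

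The domain's noncoding RNA, Kcnq1ot1, is the paternal transcript that silences its neighbours in cis. It had 244, 41.3 and 92.4 estimated counts, with standard deviations of 59.2, 17.9 and 33.1 in the authors' model. Per length it was at 0.0411 [0.0211 to 0.0611], 0.00696 [0.000933 to 0.0130] and 0.0156 [0.00443 to 0.0267] FPKM, since the annotated transcript spans 93092 bases. The VD3 value was 0.169 of the untreated one with intervals apart, and the value with both agents was 0.379 of it with intervals that overlap. At these levels the gene was far under the 5 FPKM minimum and was not counted above. Its bounds and counts are given because the intervals were apart, a choice made after they were seen.

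In the neighbouring domain, H19, a maternal noncoding RNA that hosts miR-675, was at 202 [120.4 to 284], 219 [132 to 306] and 192 [75.6 to 308] FPKM. Igf2, the paternally expressed growth factor next to it, was at 43.7 [23.9 to 63.4], 47.5 [26.8 to 68.3] and 54.3 [6.65 to 102] FPKM. The largest log2 difference of either gene in any comparison was 0.31, and all intervals overlapped. By count both were lowest with both agents, H19 at 21144, 23375 and 16303 and Igf2 at 8234, 8527 and 6283. With VD3 both stood at 0.12, the lowest of the 7 genes of this chromosome end.

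The centre of chromosome 7 (59228750 to 62464510) carries the domain whose human counterpart is lost in Prader-Willi and Angelman syndromes. Ube3a, a ubiquitin ligase gene whose paternal copy is silent in neurons, was at 31.9 [3.37 to 60.4], 6.14 [0 to 13.6] and 19.5 [0 to 41.3] FPKM. The VD3 pool was lowest, at 0.193 of the untreated level, a log2 difference of -2.20, and the pool with both agents was 1.52 above it. With bounds this wide all 3 intervals overlapped. The gene's promoter is 1 of the CpG-rich windows printed above. By estimated count Ube3a stood at 9442, 1585 and 2304, with standard deviations of 1572, 279 and 395. By count both treated pools were therefore low, at 0.168 and 0.244 of untreated, whereas by FPKM the pool with both agents was at 0.61. The number of counts behind 1 FPKM of Ube3a was 296, 258 and 118 in the 3 pools. The cause of that shift was not tested.

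The paternal genes of the same region did not share the low values of Ube3a. Snrpn was at 364 [0 to 784], 537 [93.9 to 979] and 351 [0 to 802] FPKM, with counts of 8564, 9653 and 10369. Ndn, the gene of the growth suppressor necdin, was at 4.17 [2.25 to 6.08], 5.16 [2.72 to 7.60] and 5.81 [3.19 to 8.43] FPKM, from 1025, 1269 and 1430 counts. Mkrn3, a ring finger gene, was at 3.84, 4.26 and 3.74 FPKM. Magel2, which encodes a partner of ubiquitin ligases, was at 0.357, 0.400 and 0.264 FPKM and Peg12, of the Frat family, at 0.913, 0.710 and 0.817. The last 3 were under 5 FPKM in every pool. Intervals of all 5 overlapped between pools.

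At the proximal end of chromosome 7, Peg3, a zinc finger gene, was at 101 [52.8 to 150.1], 57.0 [28.8 to 85.2] and 70.6 [38.4 to 103] FPKM. Its counts, 57005, 31545 and 41248, gave the same order. The log2 differences of -0.82 and -0.52 were short of 2-fold, and relative to the median gene they were -1.12 and -0.73. Usp29, which shares its promoter region with Peg3 and encodes a deubiquitinase, was at 6.01 [1.63 to 10.4], 4.84 [2.77 to 6.90] and 6.97 [3.14 to 10.8] FPKM, from 1488, 1473 and 1775 counts, with no pool clear of another. Zim1, a maternal zinc finger gene beside them, was at 1.01, 0.0999 and 0.158 FPKM, from 227, 34.5 and 46.5 counts. Zim1 was thus low in both treated pools, at a level too low for the 2-fold count.

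The chromosome 12 domain pairs paternal Dlk1, a membrane-bound ligand related to Notch ligands, with the maternal noncoding RNAs Meg3, Rian and Mirg, whose silencing is known in some mouse stem cell lines. Rian was at 9.23 [1.87 to 16.6], 26.3 [20.6 to 32.0] and 8.60 [4.11 to 13.1] FPKM in a locus that also names 4 predicted genes. Only the VD3 interval stood above both others, by 1.42 against untreated, and the pool with both agents was at -1.51 against VD3. Its printed promoter window is the one with no CpG. Its estimated counts were 944, 743 and 779.8, with standard deviations of 177, 140.0 and 153, so by count VD3 was the lowest pool. One FPKM of Rian stood for 102, 28.3 and 90.7 counts, and the higher FPKM with VD3 was thus not matched by more fragments. The cause of the difference between FPKM and count was not tested.

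Meg3, the first of the maternal RNAs, was at 5.04 [1.79 to 8.29], 6.77 [1.64 to 11.9] and 9.84 [0 to 19.8] FPKM, from 1344, 1433 and 1263 counts. Mirg, a host of many microRNAs, was at 3.14, 3.88 and 3.99 FPKM. Dlk1 was at 5.20 [1.87 to 8.53], 3.92 [1.24 to 6.60] and 2.34 [0.306 to 4.37] FPKM, with 289, 211 and 171 counts. The Dlk1 difference with both agents was -0.89 on the log2 scale, with overlapping intervals. All 3 maternal RNAs were detected in every pool, and by count none of them differed from untreated by 2-fold in either direction.

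Of the genes elsewhere, Zdbf2 on chromosome 1 (63273265 to 63314576), a paternal zinc finger gene known for growth effects, was low in both treated pools. Its locus, which also names the noncoding gene Platr12, was at 27.7 [3.61 to 51.8], 7.49 [0.0603 to 14.9] and 8.59 [0 to 17.6] FPKM. The estimated counts were 17050, 3319 and 3581, with standard deviations of 2851, 580.2 and 626. Log2 differences were -1.76 and -1.58 by FPKM, and the counts were 0.195 and 0.21 of untreated. The authors' FPKM intervals overlapped in both comparisons, which share the untreated pool.

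On chromosome 6, Peg10, a gene derived from a retrotransposon and needed in placenta, was at 130.4 [84.0 to 177], 162 [102 to 222] and 133 [70.1 to 196] FPKM, from 53432, 64159 and 51986 counts. Its neighbour Sgce, the sarcoglycan gene transcribed from the other side of the same control region, was at 8.27 [4.92 to 11.6], 14.6 [8.72 to 20.4] and 10.3 [6.33 to 14.3] FPKM, from 739.6, 1191 and 937 counts. Both were highest with VD3, with overlapping intervals. Ppp1r9a, which encodes the actin-binding protein neurabin, was at 9.01 [0 to 18.2], 5.26 [0 to 10.6] and 7.54 [1.34 to 13.7] FPKM but had counts of 3638, 1123 and 1933, so its low value with VD3 passed 2-fold by count alone. Farther along, Mest, a gene of the hydrolase family, was at 76.0 [41.9 to 110.1], 131 [79.8 to 183] and 103 [58.1 to 149] FPKM, from 12428, 21469 and 16474 counts. Copg2, a coat protein gene that overlaps its end, was at 30.2 [4.96 to 55.4], 32.3 [0 to 66.4] and 34.8 [4.07 to 68.7] FPKM, from 7203, 7837 and 8041 counts. Mest was highest with VD3, Copg2 nearly level, and the intervals of both overlapped.

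On chromosome 2, Nnat, a neuronal proteolipid gene, was at 43.8 [22.0 to 65.5], 69.4 [37.1 to 102] and 77.5 [35.8 to 119] FPKM, from 3799, 5371 and 5770 counts. Blcap, in whose intron it lies, was at 15.8 [7.004 to 24.7], 29.8 [12.6 to 47.0] and 29.2 [12.6 to 45.8] FPKM, from 2067, 3784 and 3814 counts. Both genes were low in the untreated pool alone. Mcts2, a retrogene of a translation factor, was at 34.0 [14.7 to 53.3], 54.3 [24.1 to 84.6] and 64.1 [21.4 to 107] FPKM, from 1706, 2735 and 3225 counts. Gnas, the gene of the stimulatory G protein alpha subunit, was at 249 [149 to 354], 358 [220.3 to 501] and 353 [214 to 498] FPKM summed over its loci, from 17450, 24734 and 25968 counts. All 4 lay above untreated in both treated pools, by 0.50 to 0.89 on the log2 scale, short of 2-fold and with overlapping intervals; with both agents 66.1% of all genes were above untreated. Relative to the median gene their differences with VD3 were 0.35 for Nnat, 0.57 for Blcap, 0.36 for Mcts2 and 0.22 for Gnas. After the adjustment for GC content and length described further on they were 0.03, 0.32, 0.17 and 0.04 with VD3, in that order. With both agents the adjusted values were 0.0008, 0.31, -0.05 and 0.28. The median over a gene's transcripts in place of the longest gave 0.14, 0.41, 0.49 and -0.03 with VD3.

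On chromosome 11, the locus that names Commd1, a copper and NF-kappaB regulator, together with the glycosyltransferase gene B3gnt2 was at 232 [126 to 339], 382 [217 to 546] and 524 [207 to 841] FPKM. The log2 differences were 0.71 and 1.17, with overlapping intervals. Counts of 8377, 12478 and 14663 gave the same order and a smaller ratio, 1.75 with both agents against 2.26 by FPKM. How far Commd1 itself carries this cannot be told apart from B3gnt2. Zrsr1, the retrogene inside it, was at 5.42 [0.0377 to 10.8], 5.84 [0 to 12.2] and 7.57 [0 to 17.8] FPKM, from 1177, 1267 and 1642 counts. Grb10, an adaptor that restrains insulin signalling, was at 300.5 [42.7 to 558], 350.2 [45.9 to 655] and 227 [0 to 549] FPKM summed over 2 loci, from 39964, 49542 and 34230 counts. Neither Zrsr1 nor Grb10 had a pool whose interval was clear of another.

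Igf2r on chromosome 17, the maternal receptor that clears IGF2, was at 15.5 [10.1 to 20.9], 15.1 [9.73 to 20.5] and 9.76 [5.80 to 13.7] FPKM. The counts were 9347, 9123 and 5883. Only the pool with both agents was low, at 0.63 of untreated by FPKM and by count, with overlapping intervals. Airn, the antisense RNA that silences Igf2r on the paternal allele, was at 0.592, 0.364 and 0.266 FPKM with a lower bound of 0 in each pool. Plagl1 on chromosome 10, a zinc finger gene that regulates other imprinted genes, was at 5.07 [2.46 to 7.69], 4.30 [2.15 to 6.45] and 5.48 [1.71 to 9.25] FPKM, from 1601, 1314 and 1218 counts. Impact on chromosome 18, a regulator of the translation kinase GCN2, was at 29.0 [19.5 to 38.5], 16.6 [11.1 to 22.2] and 20.8 [13.9 to 27.7] FPKM, from 6595, 3787 and 4724 counts. Its difference with VD3 was -0.76, or -1.06 relative to the median gene, and the bounds overlapped by little.

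**Figure D3:**
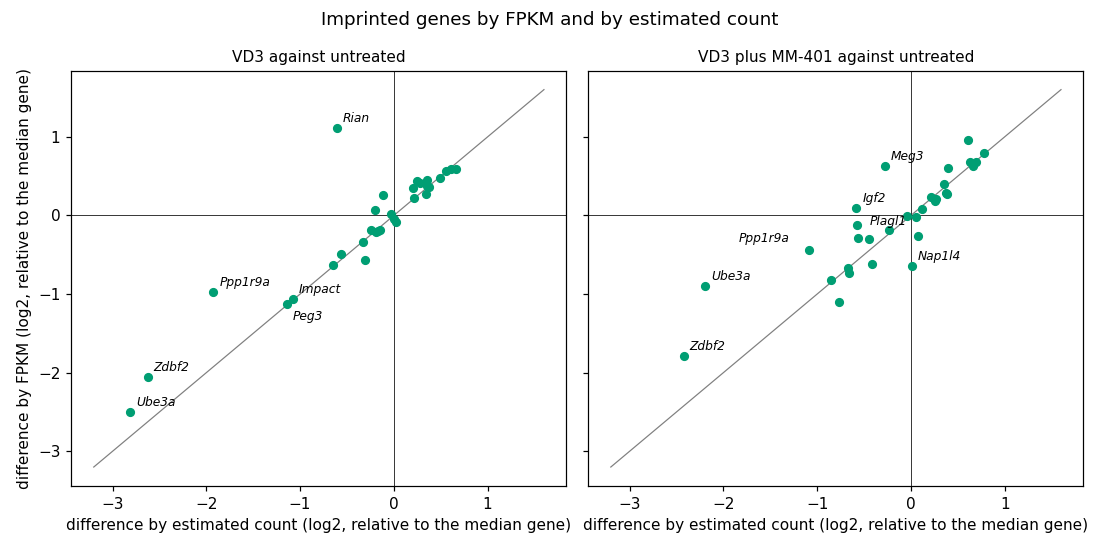
Differences of the 31 genes by FPKM (vertical) and by the authors' estimated count (horizontal), on the log2 scale and relative to the median gene, for VD3 (left) and VD3 plus MM-401 (right) against untreated; the line marks equal values. Most genes lie near the line; Rian with VD3 lies on opposite sides of 0 (1.12 by FPKM and below 0 by count), and Ube3a with both agents is much lower by count than its -0.89 by FPKM.

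Transcript composition, which did not define the list of genes, went along with these values. Over 33 genes, the Spearman correlation of the VD3 difference was 0.395 with GC content and -0.635 with length of the longest annotated transcript. Over 8799 protein-coding genes the same values were 0.567 and -0.413. With both agents the imprinted genes gave 0.418 and -0.560, beside 0.408 and -0.572 over 8825 genes. All genes of a comparison share the same 2 pools, so these are descriptions. The genes past 2-fold lower are long and AT-rich, Ube3a with 36.9% GC over 9856 bases and Zdbf2 with 42.3% over 12629. Zim1 and Kcnq1ot1, low with VD3 but under the minimum for a call, have 42.5% over 7693 bases and 40.3% over 93092. Of the genes of distal chromosome 7, Tssc4 has 59.2% GC over 1519 bases and Cdkn1c 59.4% over 1901. Rian, with 35.8% GC over 8089 bases, was high where such genes were low by FPKM.

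**Figure D4:**
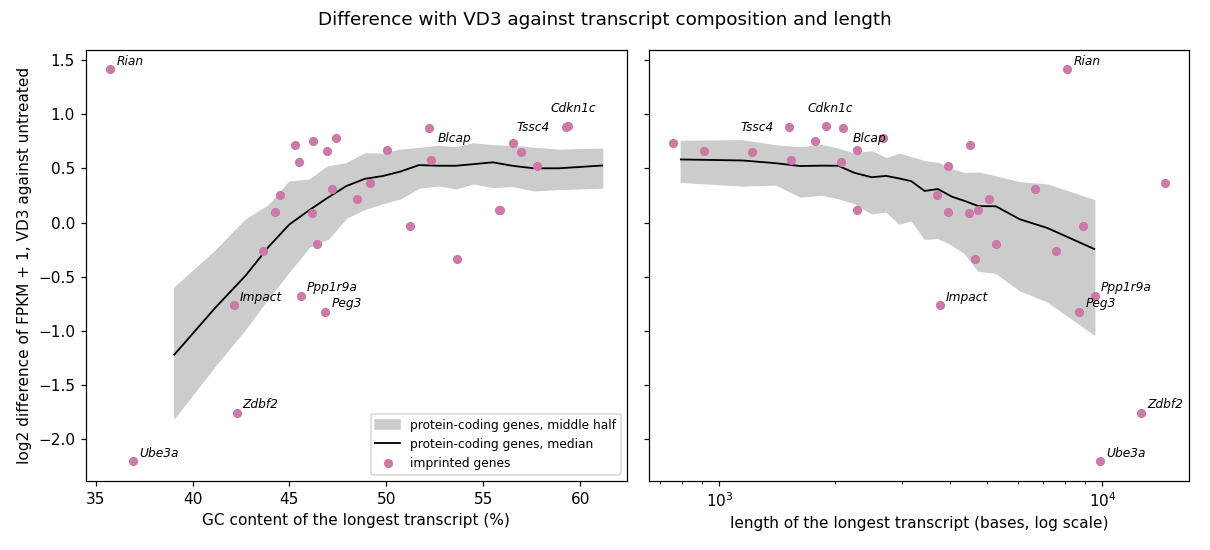
Log2 difference of FPKM + 1 with VD3 for the 31 genes against GC content in percent (left) and length on a log axis (right) of the longest transcript; the line and grey band are the median and middle 50 percent of protein-coding genes in 20 bands of equal size. Ube3a and Zdbf2 sit at the low-GC, long end where protein-coding genes are low as well, and Rian at the same end is high.

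After subtraction of a trend in GC content and length fitted on the protein-coding genes, Zdbf2 was at -0.69 with VD3 and -0.89 with both agents, or at -0.64 and -0.76 with the median over a gene's transcripts in place of the longest. Tssc4 was at 0.32 and 0.30, or at 0.35 and 0.35, so it was no longer past 2-fold with both agents under either version. Ube3a depended on the transcript taken to stand for it. With the longest transcript it was at -0.02 and 1.02, and with the median over its transcripts at -1.34 and -0.37. Rian was at 3.60 and 1.67 with the first and 1.71 and -0.21 with the second; as a noncoding RNA it lies outside the genes of the fit. Commd1 was at 0.87 and 1.26, or 0.44 and 0.68, and Dlk1 at -0.74 and -1.03, or -0.91 and -1.47. Nap1l4 with both agents was at -0.91 or -1.05. With VD3, Impact also depended on the transcript, at -0.24 with the longest and -0.99 with the median, while Peg3 was at -0.58 or -0.47. The longest transcript was chosen after values under the median had been seen, so neither version is given precedence here.

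Genes of imprint maintenance and of the DNA methylation machinery were read from a list of 16, of which 15 had 5 FPKM. Not all of them keep imprints, Tet1, Tet2 and Ctcfl among the exceptions. With VD3 none was 2-fold higher and 4 were lower, namely Zfp445, Tet2, Cbx3 and Hells (3.54% of all genes higher and 8.69% lower). With both agents Zfp445 and Hells were lower and Dnmt3l higher (6.24% of all genes lower and 13.4% higher). By estimated count Dnmt3l, at 14777, 27991 and 26969, was short of 2-fold. Tet1 was short of 2-fold by FPKM, at -0.99 with VD3 and -0.72 with both agents, but was at -1.74 and -1.21 by CPM. Its counts as deposited were 42179, 14851 and 21450. The authors' lower bounds of Hells and Tet1 were 0 in every pool. Of these only Zfp445 had intervals apart, with VD3. Zfp57, the main reader of methylated imprints in these cells, was level at 338, 333 and 338 FPKM. Zfp445, another protein with this role, in a locus that also names AC125374.3, was at 44.0 [16.4 to 71.7], 9.36 [3.36 to 15.4] and 13.6 [5.56 to 21.6] FPKM, apart from untreated with VD3 and overlapping with both agents. Trim28, the corepressor both recruit, was at 1327, 1976 and 2436 FPKM, with overlapping intervals. Its counts of 92181, 140010 and 133415 were highest with VD3. The maintenance methyltransferase gene Dnmt1 was at 117, 126 and 116 FPKM, with a lower bound of 0 with both agents. Its counts were 35165, 40077 and 27072, lowest with both agents. Dnmt3l, a cofactor of de novo methylation, was at 145, 273 and 299 FPKM. The list's median was -0.02 with VD3 and -0.18 with both agents, beside 0.30 and 0.21 over all genes. After the adjustment for GC content and length of the longest transcript the list's medians were -0.14 and -0.26. Over all genes with these properties they were -0.03 and -0.10, so the list lay nearer to the median gene than before the adjustment.

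A further list of 30 imprinted genes outside the 38 had 29 in the tables and 7 with 5 FPKM. None was past 2-fold with VD3, against 3.54% of all genes higher and 8.69% lower, and 1 was higher with both agents, against 13.4% of all. That gene, Ddc, the decarboxylase next to Grb10, was at 11.3, 19.9 and 34.5 FPKM with overlapping intervals. Its counts of 675, 1070 and 1087 were not past 2-fold, with a log2 difference of 0.42 by CPM against 1.53 by FPKM with both agents. The median over the 14 of them at a mean of 1 FPKM was 0.18 with VD3 and 0.20 with both agents.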

How the data were processed

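RNA was sequenced in 6 libraries of 3 groups. TopHat2 2.1.1, SAMtools 1.5, Cufflinks 2.2.1 and build mm10 are named in the submitters' processing notes, without settings. The authors deposited FPKM per locus with confidence bounds of unstated level and, in a companion table, estimated counts with a variance, per the file headers. Each table has 1 pooled column per group. The VD3 column carries its group's name; the untreated and VD3 plus MM-401 columns were matched by the part of the name shared with their titles, the rest being unexplained, so another meaning would change every comparison with them. For the median gene above 500 counts, FPKM per count was equal between pools (ratio 1), so the deposited counts were compared with 1 divisor for all pools.

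Loci of one name were summed, bounds included; unnamed loci and 14 without a valid status were left out. For Rian, named by 2 features, the higher was used. A gene was called at a log2 difference of FPKM + 1 of at least 1 where the higher pool reached 5 FPKM, and, in a second rule, with the authors' intervals apart; medians used genes with a mean of at least 1 FPKM. The planned edgeR fit for single libraries could not be made from pools, so no p-value is given. All 38 genes are named by rule; bounds and counts were planned for those with 5 FPKM and added for some below it after values were seen. Of other lists, the rule named genes past 2-fold with intervals apart and the defining markers; the rest were chosen after their values were seen. GC content, length and coordinates came from GENCODE vM21 (GRCm38, the sequence of mm10), with a cubic trend fitted on protein-coding genes. Members and lists were chosen with earlier results of these data known, and the sequences printed, the grouping of genes by position, the transcript used for GC content and length, and the tolerances for stability were chosen after values were seen. The code for the calls was run on simulated pools with large planted changes in well expressed genes and fixed relative bounds. That run checked the code and does not show how reliable calls are where bounds are wide. Python 3.11.15, numpy 2.4.6, pandas 2.3.3, scipy 1.17.1 and matplotlib 3.10.9 were used.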

Additional observations from a re-analysis of the deposited data

How the results depend on the processing

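Differences were recomputed under 7 other settings and under 3 more chosen after seeing the data (loci of one name kept apart, estimated counts as deposited, median transcript for GC content and length). Of 78 recomputed counts and medians, 59 stayed within 1.5 times (counts) or 0.1 on the log2 scale (medians); 2 of the 20 medians among them changed sign. Of 552 values of single genes, 440 stayed on their side of 2-fold and, where under it, moved by less than the authors' count error; 42 of these small values changed sign. Of the values past 2-fold in either setting, 6 reversed.

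With VD3 against untreated, 3 genes were past 2-fold in the main setting. There were 5 by counts scaled to pool totals, 5 when centred on the median gene, 1 without loci that name several genes and 1 after adjustment for GC content and length; Rian, called with intervals apart, drops out with the loci of several names (0 left). The median of 0.25 became -0.0681 by counts scaled to pool totals, -0.0454 when centred, 0.3626 at a minimum mean of 5 FPKM, 0.1127 after adjustment and 0.1351 with the median transcript. With both agents against untreated, 1 gene was left of 3 without loci of several names. The median of 0.20 became -0.0374 by counts scaled to pool totals, -0.0091 when centred, 0.0595 with no minimum, 0.0902 after adjustment and -0.1259 with the median transcript. With both agents against VD3, 0 of 3 genes were past 2-fold by counts scaled to pool totals and 0 by deposited counts, and without loci of several names 0 of 1 kept intervals apart. Centring lowers every value by the difference of the median gene, by construction, and leaving out loci removes genes; the other causes were not tested.

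Rian reversed to -0.5428 by counts scaled to pool totals and -0.319 by deposited counts with VD3, to 0.0655 and 0.0642 with both agents against VD3, and to 1.6705 after adjustment with both agents against untreated. Ube3a reversed to 1.0209 after adjustment in that last comparison. No paired analysis was possible because the tables hold 1 pooled column per group; leaving out replicates was not possible for the same reason. Genes near 0 FPKM and those with a lower bound of 0 are limited by depth and by the authors' model.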
